A study of Mus musculus with 4 samples.

Results

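The C-type lectin receptors described here are 10 genes (Clec7a, Mrc1, Cd209a, Clec4a2, Clec4d, Clec4e, Clec4n, Mgl2, Clec10a and Ly75), taken as a named list and read through every probe set annotated to them. They were found on 13 probe sets that name 1 member alone and 1 probe set that names Clec4a2 together with Clec4b1, out of 22690 probe sets and 12393 named genes. The samples were mouse CD11c+ dendritic cells labelled IL10-/-, deficient in interleukin 10, kept for 6 h in media, with SEA, with LPS (lipopolysaccharide, the bacterial ligand of Toll-like receptor signalling) or with both (SEA/LPS). Each of the 4 groups had 1 array. All groups share the IL10-/- genotype and the lot, so none shows these receptors in cells that make interleukin 10. The labels used here do not spell out SEA and give no dose, strain, age or tissue of origin. With 1 array a group there was no replicate error and no test, and every difference below is a size between arrays.

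C-type lectin receptors are membrane proteins that bind sugars or glycolipids of microbes, parasites and dying cells through a shared fold. Some of them signal through the kinase Syk, either by a motif in their own tail or through the adaptor chain Fcer1g, which passes the signal to the Card9, Bcl10 and Malt1 complex and to NF-kappaB. Others carry an inhibitory tail motif or mainly take up ligands for antigen presentation, and dendritic cells are a main site of their expression.

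Clec4e was higher with LPS, and Clec4d lies beside it and was near its media level. Clec4a2 and Clec7a were lower with LPS and nearer to media when SEA was present. The promoter sequences of these 4 members, which are not the 4 with the widest range over the arrays, are shown as examples. Each runs from 250 bases before to 50 bases after the gene's start, 5′ to 3′ on the gene's own strand, from RefSeq on GRCm38.p6, at chr6:123289822-123290121 on the minus strand for Clec4e, chr6:123261857-123262156 on the plus strand for Clec4d, chr6:123122440-123122739 on the plus strand for Clec4a2 and chr6:129472730-129473029 on the minus strand for Clec7a. Capitals mark matches, on either strand, to the letters of 6 motifs named after the list.
Clec4e: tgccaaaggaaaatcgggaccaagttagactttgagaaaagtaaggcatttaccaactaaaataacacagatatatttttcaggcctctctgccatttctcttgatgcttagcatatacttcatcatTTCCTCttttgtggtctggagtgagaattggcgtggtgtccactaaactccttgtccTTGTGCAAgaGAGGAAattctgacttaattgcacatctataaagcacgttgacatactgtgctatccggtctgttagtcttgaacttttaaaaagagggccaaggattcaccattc
Clec4d: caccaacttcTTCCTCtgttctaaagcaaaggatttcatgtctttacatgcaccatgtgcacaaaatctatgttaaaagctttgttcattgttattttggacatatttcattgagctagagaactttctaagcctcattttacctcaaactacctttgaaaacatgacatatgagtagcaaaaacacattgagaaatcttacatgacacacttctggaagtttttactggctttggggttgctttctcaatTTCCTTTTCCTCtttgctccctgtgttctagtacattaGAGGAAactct
Clec4a2: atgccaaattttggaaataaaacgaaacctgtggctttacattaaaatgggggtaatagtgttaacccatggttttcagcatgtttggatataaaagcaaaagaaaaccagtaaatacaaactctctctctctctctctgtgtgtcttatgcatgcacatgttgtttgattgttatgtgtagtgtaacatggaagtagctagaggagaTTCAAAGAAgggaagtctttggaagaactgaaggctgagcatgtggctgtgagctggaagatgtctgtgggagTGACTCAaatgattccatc
Clec7a: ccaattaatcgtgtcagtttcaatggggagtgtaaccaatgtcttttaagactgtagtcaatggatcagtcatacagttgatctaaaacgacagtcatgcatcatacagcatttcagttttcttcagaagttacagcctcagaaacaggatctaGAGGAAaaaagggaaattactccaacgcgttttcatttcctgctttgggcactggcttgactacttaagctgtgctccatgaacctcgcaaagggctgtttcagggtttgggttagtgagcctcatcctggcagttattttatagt
The motifs searched were NF-kappaB (GGANNTTCC), AP-1 (TGANTCA), the interferon-stimulated response element (GAAANNGAA), PU.1 (GAGGAA), C/EBP (TTGCNNAA) and STAT (TTCNNNGAA). The table held promoters for 8 of the 10 members. PU.1 is a myeloid lineage factor, and its letters were in 5 of the 8 (Clec4d, Clec4e, Clec7a, Mgl2 and Mrc1). As Clec7a has overlapping windows, this was 6 of 9 member windows, against 28.3% of all 32851 promoter windows. The C/EBP letters were in Clec4e and Ly75 (10.8% of all windows), the AP-1 and STAT letters in Clec4a2 (7.81% and 8.30%), and the letters of the interferon-stimulated response element in Clec4d (8.56%), where they overlap a PU.1 match. The NF-kappaB letters were in Mgl2 (4.26%). These matches describe letters in a window and were tested for nothing.

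The 4 arrays had been scaled by the authors to nearly the same mean, and their median probe set signals were 52.4 in media, 53.2 under SEA, 51.5 under LPS and 45.1 under SEA/LPS. A signal of 33.3, percentile 40 of all values, served as the floor, and all 10 members lay above it on at least 1 array. Of 11 dendritic cell markers, all 11 were above the floor on the media, SEA and LPS arrays and 10 on the SEA/LPS array. Of 8 macrophage and monocyte markers, 8 were above the floor on all 4 arrays, and their summed signal was 17208 in media, 17610 under SEA, 17090 under LPS and 18250 under SEA/LPS. Lyz2 and Csf1r carry most of that sum, and single markers did not move alike. Ccr2, a chemokine receptor of monocytes, read 319.1, 277, 36.7 and 81.3 on the media, SEA, LPS and SEA/LPS arrays, while the scavenger receptor Marco read 68.6, 47.2, 219.4 and 119.1. The 11 dendritic cell markers summed to 25477, 25856, 31105 and 24273 in the same order. Cd74, H2-Aa and H2-Ab1 carry most of that sum. Between LPS and SEA/LPS, H2-Ab1 went from 8108.7 to 3436.7, H2-Aa from 6219.7 to 5708.9 and Cd74 from 11232.9 to 10485.8. Macrophages and monocytes also carry several of these lectins. Of 5 T cell markers with a probe set 1 lay above the floor on any array, and of 4 B cell markers 2 did. Of 7 granulocyte markers 5 did, of 4 mast cell and basophil markers 3, and of 3 plasmacytoid dendritic cell markers 3. Of 4 NK cell markers 2 did, of 4 fibroblast markers 2, of 3 endothelial cell markers 2, and of 1 erythroid marker 1. The brightest of these were Tcf4 (153.7, 143.3, 729.8 and 693) and Kdr (124.6, 147.5, 441.6 and 265), in the same array order. In such bulk RNA, fewer cells of a type and less RNA per cell cannot be told apart. For Gapdh the 3′ probe set read 2.21, 2.69, 2.42 and 3.12 times the 5′ probe set on the media, SEA, LPS and SEA/LPS arrays, and for Actb 1.20, 1.37, 1.24 and 1.26 times. This sign of RNA quality was highest on the SEA/LPS array for Gapdh and on the SEA array for Actb. The part of any of these in the results was not tested.

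**Figure D1:**
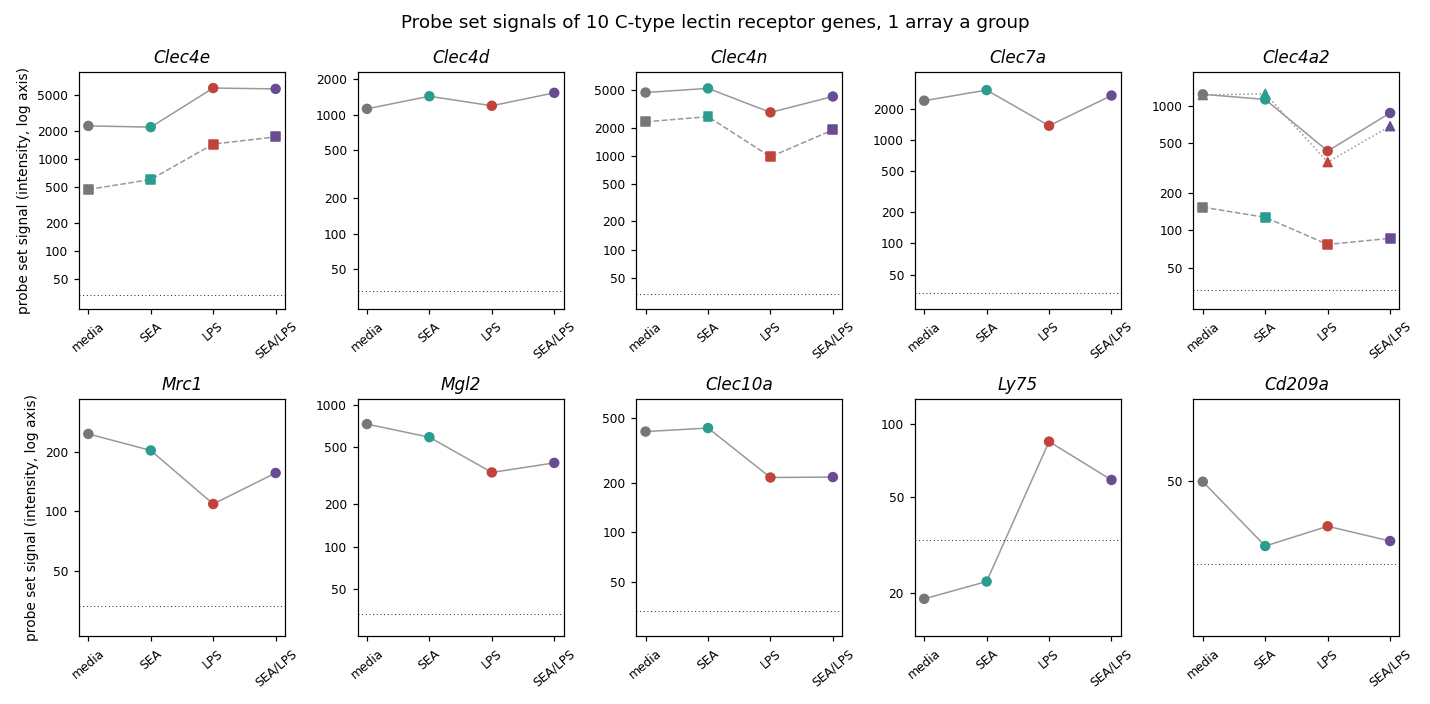
Signal of every probe set of the 10 genes on the 4 arrays, on log axes, 1 point an array. Circles with solid lines are the probe set used for the gene, squares with dashed lines its other probe set, triangles with a dotted line the probe set shared by Clec4a2 and Clec4b1, and the dotted horizontal line is the floor of 33.3. Lines only join points of a probe set. Clec4e stood high on the LPS and SEA/LPS arrays, while Clec7a and Clec4n were lowest with LPS.

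LPS over media split the receptors. Clec4e, the glycolipid receptor Mincle, was higher, while Clec4a2, Mrc1 and Mgl2 were lower and Clec10a, Clec7a and Clec4n lay below media by less than 2-fold. Ly75 was higher from a reading under the floor, and Clec4d differed little. Of the 10 members 2 passed 2-fold upward, against 6.06% of 9473 measured genes, and 3 downward, against 8.43%. The median log2 difference of the members was -0.75, and that of all measured genes was -0.06.

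Among the receptors that signal through Syk, Clec4e read 2294.7 in media, 2224.6 under SEA, 5928.2 under LPS and 5800.6 under SEA/LPS. Both arrays with LPS were high and both without it were low, whether or not SEA was present. Its difference was 1.37 log2 (2.58-fold) for LPS over media and 1.38 for SEA/LPS over SEA. Its other probe set read 466.2, 598.5, 1455.8 and 1741 in the same order and gave 1.64 and 1.54. Scaling to the hybridisation controls, which were brighter with LPS by 0.55 log2, lowered the first difference to 0.82. Clec4d, the receptor MCL that partners Mincle, read 1116.3 in media, 1424.1 under SEA, 1184.7 under LPS and 1520.9 under SEA/LPS. Its only probe set is marked as able to bind related transcripts. Clec4d was higher on both arrays with SEA, by 0.35 log2 without LPS and 0.36 with it, and its LPS difference was 0.09. That small LPS difference changed sign under some scalings, to -0.47 when scaled to the hybridisation controls.

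Clec7a, the beta-glucan receptor Dectin-1 with a signalling motif in its own tail, read 2389.6 in media, 3023.5 under SEA, 1369.5 under LPS and 2680.8 under SEA/LPS. The LPS array alone was low, and the SEA/LPS array stood between those of media and SEA. Its difference was -0.80 log2 for LPS over media and -0.17 for SEA/LPS over SEA. Clec4n, the mannan receptor Dectin-2, read 4734.2, 5240.5, 2907 and 4293.3 in media, SEA, LPS and SEA/LPS. Its lowest reading was again that of LPS, and SEA/LPS lay just under media. Its difference for LPS over media was -0.70 on this probe set, which is marked as able to bind related transcripts, and -1.24 on the other (2305.2, 2617.8, 977.8 and 1889.4), which is not so marked.

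Clec4a2, the receptor DCIR1 with an inhibitory tail motif, had the widest range of the 10, at 1.52 log2. It read 1237.9 in media, 1125.4 under SEA, 433.1 under LPS and 875.7 under SEA/LPS. The LPS array was low and SEA/LPS lay between it and the arrays without LPS. Its difference was -1.52 log2 (2.86-fold lower) for LPS over media and -0.36 for SEA/LPS over SEA. The other 2 probe sets that name it had the same order of media over LPS, at -0.995 (153.3 and 76.9) and, for the one shared with Clec4b1, -1.79 (1219.9 and 352.7).

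The uptake receptors and the galactose-type lectins were also low with LPS, apart from Ly75 and Cd209a. Mrc1, the mannose receptor, read 246.3 in media, 203.1 under SEA, 108.8 under LPS and 156.2 under SEA/LPS, with a difference of -1.18 log2 for LPS over media. Mgl2, which binds galactose-type sugars, read 731, 590.9, 333.3 and 389.1 in the same order and had a difference of -1.13. For both genes the arrays with LPS lay below both arrays without it, and Mgl2 was just short of 2-fold when scaled to percentile 75 (-0.99). The related lectin Clec10a read 410.7 in media, 431.6 under SEA, 215.7 under LPS and 217.0 under SEA/LPS. Its arrays without LPS formed a high pair and those with LPS a low pair, with LPS differences of -0.93 and -0.99 log2 without and with SEA. Ly75, the endocytic receptor DEC-205, read 18.9 and 22.3 in media and SEA, under the floor, 84.8 with LPS and 58.8 with SEA/LPS. It was at least 2.55-fold higher with LPS than with media and at least 1.77-fold higher with SEA/LPS than with SEA, both from dim readings, and with the floor at percentile 50 the first difference was 0.75 log2. Cd209a, a mouse relative of human DC-SIGN, read 49.8, 36.3, 40 and 37.2, close to the floor on every array, and no order was read from these values.

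**Figure D2:**
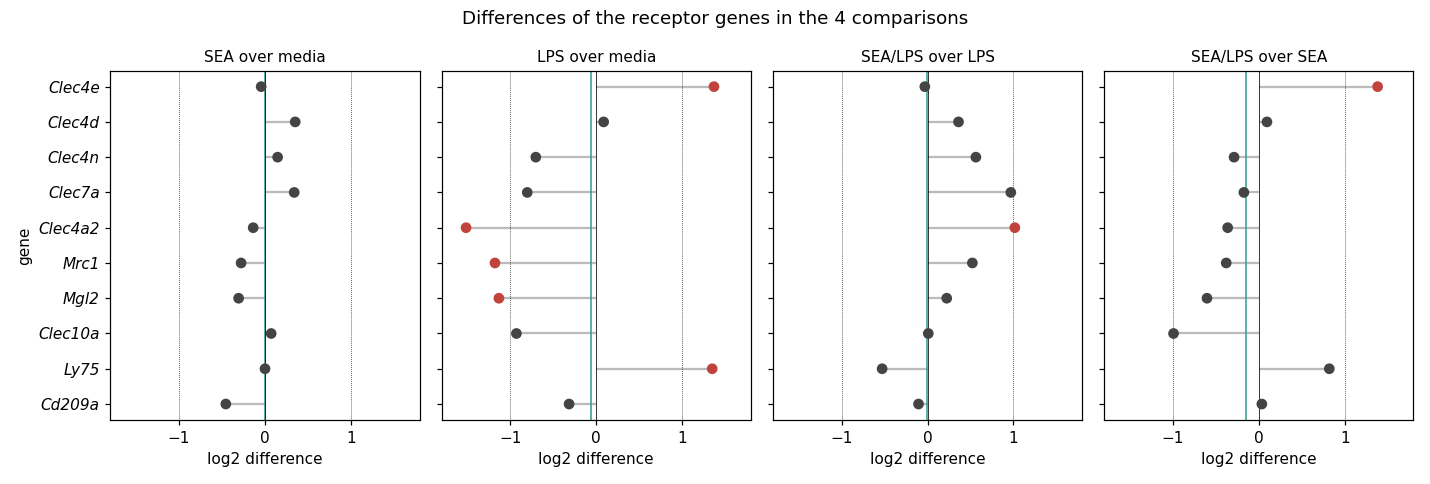
Log2 difference of each gene (rows) in the 4 comparisons (panels), 1 array against 1. Red points are at least 2-fold, dotted lines mark 2-fold, and the green line is the median of all 9473 measured genes. In LPS over media the median of the 10 genes was -0.75, against -0.06 for all measured genes. In SEA/LPS over LPS, which uses the same LPS array, it was 0.29, against -0.01.

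SEA alone left the receptors near their media level. Of the 10 members 0 passed 2-fold upward, against 0.644% of all measured genes, and 0 downward, against 0.633%. The member differences ran from -0.46 (Cd209a) to 0.35 (Clec4d), with a median of -0.02, against a standard deviation over all genes of 0.35. On the probe sets used, Clec7a at 0.34 and Clec4d at 0.35 were the highest, above 85.1% and 86.0% of genes. Mgl2 at -0.31 and Mrc1 at -0.28 lay on the low side. The probe sets of Clec4e disagreed, at -0.04 for the one used and 0.36 for the other.

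SEA added to LPS went with higher readings of several receptors than LPS alone. This comparison and LPS over media use the same LPS array. A low reading on it lowers the LPS over media difference and raises this one, and the part of that was not tested. Clec4a2 was 2.02-fold higher (1.02 log2) and Clec7a 1.96-fold higher (0.97), which placed them above 98.7% and 98.4% of measured genes in this comparison. Clec4n (0.56), Mrc1 (0.52), Clec4d (0.36) and Mgl2 (0.22) were above 0 by less, Clec10a (0.01) and Clec4e (-0.03, and 0.26 on its second probe set) lay near their LPS level, and Ly75 was lower (-0.53). Of the 10 members 1 passed 2-fold upward, against 1.39% of all genes, and 0 downward, against 3.47%. The median of the members was 0.29 and that of all genes -0.01. The second probe set of Clec4n gave 0.95, above its first. For Clec4a2 the probe sets disagreed in size: the dim one gave 0.16 (76.9 with LPS and 86.1 with SEA/LPS), the one shared with Clec4b1 gave 0.96, and their mean over the 2 that name Clec4a2 alone was 0.59. Clec4a2 passed 2-fold narrowly, and besides that mean it stood short of it under quantile normalization (0.90) and with a pseudocount of 16 in place of the floor (0.99). Clec7a passed it when scaled to percentile 75 (1.03) and to the hybridisation controls (1.21). Beside these values, the macrophage and monocyte markers summed to 1.07 times as much with SEA/LPS as with LPS, with Ccr2 (1.15 log2) and the Fc receptor Fcgr1 (0.74) higher and Marco lower (-0.88). Among the dendritic cell markers the class II gene H2-Ab1 (-1.24) and the transcription factor Irf8 (-1.001) were lower past 2-fold. Ciita (-0.68), Irf4 (-0.44), Batf3 (-0.36) and Flt3 (-0.27, under the floor with SEA/LPS) were lower by less. The class II gene H2-Aa (-0.12), Cd74 (-0.10) and Sirpa (-0.02) differed little, and Zbtb46 (0.34) and Itgax (0.18) were higher.

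LPS given with SEA can be set against LPS given without it, since SEA/LPS over SEA and LPS over media use 4 different arrays. Clec4e was the 1 member of 10 that passed 2-fold upward with SEA/LPS over SEA, against 4.67% of genes, and 0 passed downward, against 6.38%. The 7 members below 0 in LPS over media had a median of -0.93 there and -0.36 in the presence of SEA, and 6 of the 7 had the smaller size with SEA, Clec10a being the exception and Cd209a, one of the 6, lying close to the floor throughout. Clec4a2 had a difference of 1.15 log2 between these settings, larger than in 98.1% of genes, but of 0.43 on its dim probe set and 0.92 on the one shared with Clec4b1. Mrc1 had a difference of 0.80 (93.8%) and Clec7a of 0.63 (89.7%). This shrinkage was not particular to the receptors. The 799 genes at least 2-fold lower with LPS had a median of -1.29 in LPS over media and -0.75 in SEA/LPS over SEA, and 87.5% of them had the smaller size with SEA. The 3 members past that same threshold had medians of -1.18 and -0.38, and 3 of 3 had the smaller size with SEA. The median difference between the settings was 0.80 log2 for those 3 and 0.60 for the 799. Of all 9473 measured genes, of either sign, 56.5% had the smaller size with SEA. That share is not a like measure for the 6 of 7, and none was taken for all genes below 0. Genes picked for a low value in one pair of arrays tend to lie nearer 0 in another pair, and how much of the shrinkage comes from that choice was not tested.

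**Figure D3:**
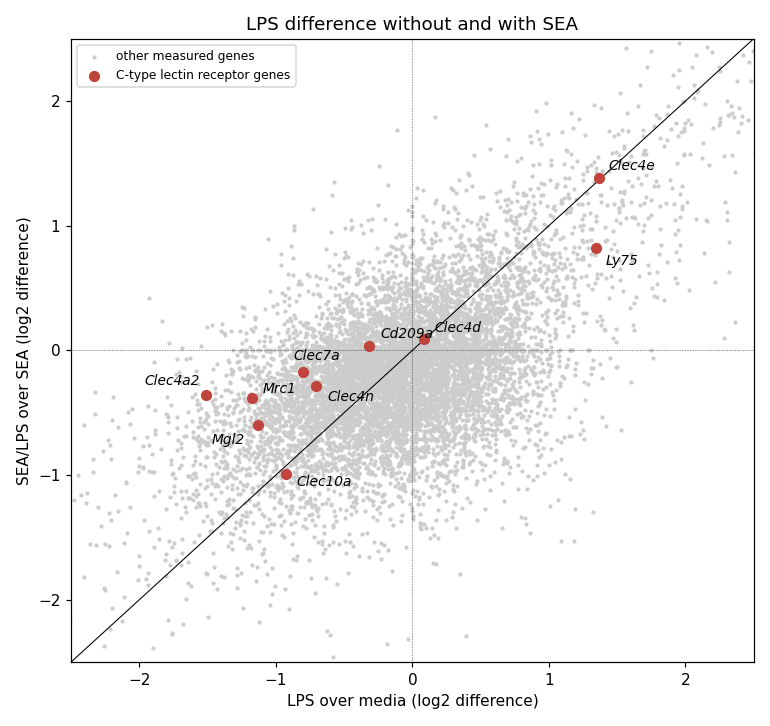
LPS difference without SEA (horizontal, LPS over media) against that with SEA (vertical, SEA/LPS over SEA), both log2, for 9463 other measured genes (grey) and the 10 receptor genes (red). The diagonal marks equal differences, and 130 genes lie outside the limits of 2.5. Clec4e, Clec4d and Clec10a lie close to the diagonal, and Clec4a2 lies farthest above it among the receptors.

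Several members lie side by side on chromosome 6. In assembly GRCm38.p6 the genes Clec4a1, Clec4a3, Clec4a4, Clec4b1, Clec4a2, Clec4b2, Clec4n, Clec4d and Clec4e follow each other with no other protein-coding gene between them, and 5 of these 9 had a probe set of their own. In that order the LPS over media difference of the probe set used was -1.29 for Clec4b1, -1.52 for Clec4a2, -0.70 for Clec4n, 0.09 for Clec4d and 1.37 for Clec4e. The neighbours at one end were thus low with LPS, those at the other end were level or high, and the second probe sets of Clec4a2, Clec4n and Clec4e kept the sign. Clec7a, farther along the same chromosome, had -0.80.

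**Figure D4:**
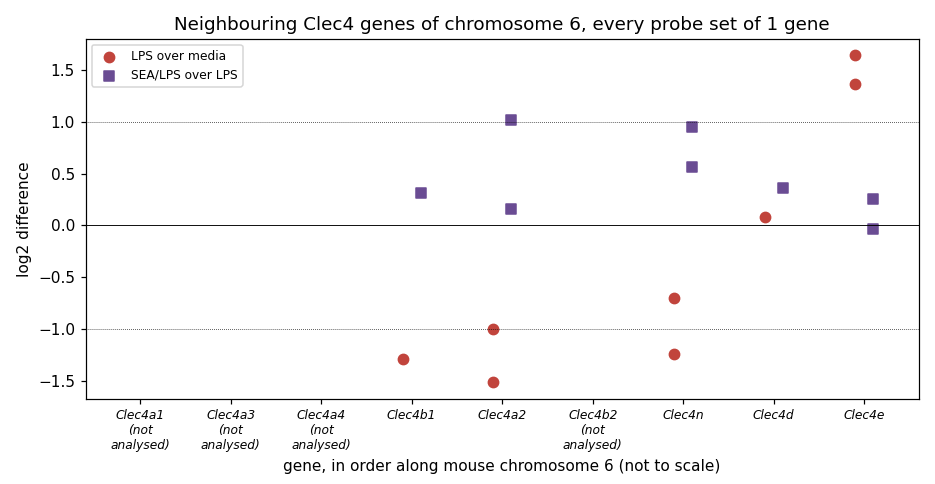
Log2 differences of the neighbouring Clec4 genes in their order along mouse chromosome 6, spacing not to scale, 1 point for each probe set of 1 gene. Circles are LPS over media and squares SEA/LPS over LPS, which share the LPS array, and dotted lines mark 2-fold. The LPS differences lie between -1.52 for Clec4a2 and 1.64 for the second probe set of Clec4e.

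Other C-type lectin genes were read from a list of 46, of which 20 were measured. With SEA/LPS over LPS 1 of the 20 passed 2-fold upward and 1 downward, against 1.39% and 3.47% of all genes, with a median of 0. The higher gene was Clec5a, a receptor that signals through the adaptor Tyrobp, which read 187.6 in media, 138.1 under SEA, 102.8 under LPS and 275.8 under SEA/LPS (1.42 log2). Its SEA/LPS reading was the highest of the 4 and its LPS reading the lowest. The lower gene was Klrg1, an inhibitory receptor of lymphocytes, which was above the floor in media and with LPS (66.2 and 84.1) and under it on both arrays with SEA. With SEA alone 0 of the 20 passed 2-fold, against 0.644% of all genes upward and 0.633% downward. With LPS alone Olr1, a receptor for oxidised lipoproteins, was higher (1.36) and Clec4b1 (-1.29) and Cd93 (at least 3.18-fold) were lower, 3 genes chosen after their values were seen. These are 1 of the 20 upward and 2 downward, against 6.06% and 8.43% of all genes.

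The signalling partners that act directly below the receptors read as follows. Fcer1g, the adaptor of Mincle, MCL and Dectin-2, read 2009 in media, 1865 under SEA, 1914.7 under LPS and 2241.8 under SEA/LPS. The kinase Syk read 935.8, 950.8, 783.1 and 885.9 in the same order, and the signalling protein Bcl10 read 765.5, 795.2, 982.1 and 855. The lowest and highest arrays of each of these 3 genes lay within 1.5-fold of each other. Ptpn6, a phosphatase recruited by inhibitory tails such as that of DCIR1, read 331.5, 391.9, 670.4 and 361.8. It was high with LPS alone (1.02 log2 over media) and lower by 0.89 log2 with SEA/LPS than with LPS, while Ptpn11, a related phosphatase, read 500.6, 525.2, 472.4 and 541.5. Card9 and Malt1 were not analysed here. Of 22 measured signalling genes 0 passed 2-fold upward and 1 downward with SEA/LPS over LPS, against 1.39% and 3.47% of all genes. The lower gene was Rel, an NF-kappaB subunit, at 74.8, 65.5, 448.7 and 191. Against media, LPS had 3 of the 22 higher and 2 lower, against 6.06% and 8.43% of all genes.

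Mrc1, Mgl2 and Clec10a are also known as markers of alternative activation, the state that interleukin 4 brings about in macrophages. Of 17 measured genes of that state, 2 passed 2-fold upward and 2 downward with LPS over media, against 6.06% and 8.43% of all genes. With SEA/LPS over LPS 1 passed upward and 0 downward, against 1.39% and 3.47%. With SEA alone 0 passed in either direction, against 0.644% and 0.633%. The gene higher with SEA/LPS was Egr2, a transcription factor, which read 442.1 in media, 577.9 under SEA, 117.6 under LPS and 293.6 under SEA/LPS. Like Clec4a2 it was lowest with LPS and stood between that array and media when SEA was present. Klf4 and Egr2 were the 2 genes past 2-fold downward with LPS (-1.35 and -1.91). Klf4 read 255.8, 222, 100.1 and 178 on the same arrays and differed by 0.83 log2 with SEA/LPS over LPS. It was named after its values were seen. The other genes of the list did not share one direction, and the median of the list with SEA/LPS over LPS was 0.07. Ccl22 and Tnfsf4, the 2 genes past 2-fold upward with LPS (1.65 and 2.14), differed by -0.10 and -0.78 with SEA/LPS over LPS, and were named after their values were seen.

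Genes with the most similar profile were sought among 7133 genes above the floor on all 4 arrays, by the Euclidean distance of their 3 log2 differences to media, for the 3 members with the widest range. Nearest to Clec4a2 were Ubr7 (distance 0.07), Cd200r1 (0.09) and Eef1akmt1 (0.10). Cd200r1, an inhibitory receptor of myeloid cells, read 714.8 in media, 676.3 under SEA, 239 under LPS and 501.1 under SEA/LPS. Nearest to Clec4e were Usp12 (0.10), Cd47 (0.13) and Clmp (0.14), and nearest to Ly75, whose profile includes readings set to the floor, were Ppp4r2 (0.13), Csf1 (0.13) and Gpr85 (0.16). These distances rest on 4 arrays and describe likeness only.

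The counts moved with the scaling of the arrays. Scaling to the hybridisation controls shifted the median of all genes in LPS over media to -0.56, with 2.98% of genes past 2-fold upward and 25.5% downward, and gave 1 member higher (Ly75) and 6 lower. Relative to that shift the median of the members was -0.74. The same scaling gave 3.14% of genes higher and 1.41% lower with SEA/LPS over LPS, with 2 members higher, and 3.38% and 11.98% with SEA/LPS over SEA. Scaling to percentile 75 gave 7.64% higher and 6.14% lower in LPS over media, 2.02% and 3.08% in SEA/LPS over LPS, and 6.20% and 3.84% in SEA/LPS over SEA. At a threshold of 1.5-fold 2 members were higher and 6 lower with LPS over media, against 14.1% and 21% of all genes. For SEA/LPS over LPS it gave 2 higher and 0 lower, against 7.76% and 13.4%. For SEA/LPS over SEA 2 were higher and 2 lower, against 9.46% and 20.4%, so that the lower share was that of all genes. With SEA alone it gave 0 in both directions, against 5.11% and 4.01%.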

How the data were processed

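Total RNA of 4 samples, 1 in each of 4 groups, was read on Affymetrix arrays of 22690 probe sets. The range and decimals of the deposited values are those of a linear array intensity, which the authors had scaled, with trimmed means between 150.06 and 150.07 in the 4 columns. Their software, background step and scaling rule were not given in the sources used here, and such scaling hides any difference in total RNA.

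Probe sets were named through the platform annotation: 20380 carried 1 symbol, 691 several and 1555 none, beside 64 array controls, and 20351 were matched to the gene table of GRCm38.p6 for names. Probe sets with several symbols were left out of gene values. Signals at or under percentile 40 of the 4 columns pooled (33.3) were raised to that floor before taking log2. For each gene the probe set with the highest mean was used, and 9473 genes were above the floor on at least 1 array. A gene was counted past 2-fold if its brighter array exceeded the floor. A difference against the floor is a lower bound. The calculation was tested on simulated data. The named genes were all members, listed partners, genes of the lectin, signalling and alternative activation lists past 2-fold in SEA over media or SEA/LPS over LPS, and nearest profiles. Olr1, Cd93, Clec4b1, Ccl22, Tnfsf4, Klf4 and the cell type markers given singly lie outside that rule and were named after their values were seen. Alternatives covered floor, scaling, probe sets and threshold. The members and lists were chosen with earlier results of these data known. Python 3.11.15, numpy 2.4.6 and pandas 2.3.3 were used.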

Additional observations from a re-analysis of the deposited data

Results flagged for a closer look

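Clec4a2 differed by 1.02 log2 between SEA/LPS and LPS, and by -0.14 between SEA and media. The second value lies within the standard deviation over all genes of 0.35, so no direction was read from it. In the same order the dim probe set gave 0.16 and -0.27, and the one shared with Clec4b1 gave 0.96 and 0.03. With 1 array a group this difference between the settings was not tested.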

How the results depend on the processing

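No paired analysis was possible because each group had 1 array, so no array could be left out either. A count is given below where it moved by over 1.5 times and a median where it moved by over 0.1 log2, and the cause was not tested. No called member changed sign under the alternatives run. For LPS over media, 1 member was higher with the floor at percentile 50 and under hybridisation control scaling, and 6 were lower under that scaling and at a threshold of 1.5-fold. The median there was -0.61 when scaled to percentile 75, -0.88 under quantile normalization, -1.30 when scaled to the hybridisation controls, -0.87 for the mean of probe sets and -0.93 without probe sets marked as able to cross-hybridise. For SEA/LPS over LPS, where Clec4a2 lies at the threshold, 0 members were higher with a pseudocount of 16 in place of the floor, under quantile normalization and for the mean of probe sets, and 2 were higher when scaled to percentile 75 or to the hybridisation controls and at 1.5-fold. Its median was 0.53 when scaled to the hybridisation controls. For SEA/LPS over SEA, 2 members were higher with the floor at percentile 20 and at 1.5-fold, and 1 was lower when scaled to the hybridisation controls and 2 at 1.5-fold. The median there was -0.027 when scaled to percentile 75, -0.46 when scaled to the hybridisation controls and -0.36 without marked probe sets. With the floor at percentile 50 and without marked probe sets 9 members were measured, the first losing Cd209a and the second Clec4d. The shares of all genes at 1.5-fold, given above, are close to the share of members lower with SEA/LPS over SEA. Ly75 and Cd209a were limited by signals near the floor.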
